A study of Arabidopsis thaliana with 14 samples.

Results

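The CBF cluster and its cold-regulated target genes were followed through 14 poly(A)+ RNA libraries of immature Arabidopsis flower buds. The set was 10 named genes of the 37336 in the gene tables, chosen by gene identifier: the transcription factor genes CBF1 (AT4G25490), CBF2 (AT4G25470) and CBF3 (AT4G25480), and the effector genes COR15A (AT2G42540), COR15B (AT2G42530), KIN1 (AT5G15960), KIN2 (AT5G15970), COR47 (AT1G20440), RD29A (AT5G52310) and ERD10 (AT1G20450). Earlier results of these data were known when the set was chosen. All 10 passed the filter on low counts in each fit. The buds, stages 1 to 12, came from wild-type plants of the Columbia background and from aly1-2, a mutant allele of the mRNA export gene ALY1 in the same background, and all plants were grown at 22 degrees C with 16 h of light a day and no cold treatment in the labels. Each genotype gave 3 libraries of total RNA, 2 of nuclear RNA and 2 of cytoplasmic RNA. The mutant was represented by 1 allele, and nothing in the labels ties a library to its own plants, so p-values reflect the spread among the libraries, which may be technical. The design asks how the mutation alters poly(A)+ RNA in the cell as a whole, in the nucleus and in the cytoplasm.

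CBF1, CBF2 and CBF3 encode AP2/ERF-type transcription factors that are switched on within minutes to hours of cold and bind the CRT/DRE element, whose core is CCGAC, in the promoters of COR, KIN and RD genes. The products of those genes include dehydrins and other hydrophilic proteins that protect membranes and proteins during freezing or drought. In unstressed plants the CBF genes are kept low and follow the circadian clock, and several effector genes also answer to abscisic acid through the ABRE element, whose core is ACGTG. ALY1 belongs to the family of RNA-binding adaptors that load mRNA onto the export receptor.

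In the TAIR10.1 reference the 3 CBF genes lay head to tail on the minus strand of chromosome 4 within 7.7 kb, each with 1 exon, while the 7 effector genes had 2 to 4 exons. Upstream sequence is shown from the RefSeq TAIR10.1 genome to mark the elements above. CCGAC was searched on both strands in the 300 bases before each annotated gene start, and it was found in RD29A (3 matches), COR15A (2 matches) and COR15B (1 match) but in none of the CBF windows. Of all 27443 protein-coding genes, 13.9% held at least 1 match in that window and 1.84% at least 2. The RD29A window is chr5:21240417-21240716 on the plus strand and the COR15A window is chr2:17712331-17712630 on the minus strand, both written 5′ to 3′ with CCGAC, or GTCGG where it reads on the other strand, in capitals.
RD29A: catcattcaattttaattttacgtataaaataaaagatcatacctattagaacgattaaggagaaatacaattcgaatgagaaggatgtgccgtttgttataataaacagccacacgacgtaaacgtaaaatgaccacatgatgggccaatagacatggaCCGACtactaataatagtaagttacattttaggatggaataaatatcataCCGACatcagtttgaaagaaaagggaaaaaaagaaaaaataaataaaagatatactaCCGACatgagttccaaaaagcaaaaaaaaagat
COR15A: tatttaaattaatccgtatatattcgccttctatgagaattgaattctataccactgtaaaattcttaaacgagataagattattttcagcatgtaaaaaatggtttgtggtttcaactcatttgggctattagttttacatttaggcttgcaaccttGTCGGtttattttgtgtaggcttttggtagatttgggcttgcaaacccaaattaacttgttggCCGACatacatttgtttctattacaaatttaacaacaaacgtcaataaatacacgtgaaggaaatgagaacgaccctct
RD29B, the neighbour of RD29A on chromosome 5, is shown for contrast because edgeR called it lower in aly1-2 total RNA. Its window is chr5:21236721-21237020 on the plus strand, with the 4 matches to ACGTG, or CACGT on the other strand, in capitals. The RD29A window held no ACGTG, and 25.6% of all windows held at least 1, counting overlapping matches on the 2 strands separately. Over the 1000 bases before the coding start, however, RD29A held 1 ACGTG. In that longer window 10 of the 10 genes held at least 1, against 54.2% of all genes.
RD29B: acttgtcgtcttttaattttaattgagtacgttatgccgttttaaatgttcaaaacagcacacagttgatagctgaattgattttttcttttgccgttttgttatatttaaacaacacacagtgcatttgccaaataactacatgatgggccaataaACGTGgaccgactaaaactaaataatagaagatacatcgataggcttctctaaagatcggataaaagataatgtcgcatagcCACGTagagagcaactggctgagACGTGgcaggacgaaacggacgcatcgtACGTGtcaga

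The CBF windows shared another motif, the evening element AAATATCT, which MYB factors of the circadian clock bind. It was present on 1 or the other strand in all 3 CBF windows and in KIN1, and in 5.64% of all windows. The segments of 60 bases around it, from chr4:13023044-13023103 for CBF1, chr4:13016253-13016312 for CBF2 and chr4:13019566-13019625 for CBF3, are given on the minus strand with the element, or its reverse complement AGATATTT in CBF1, in capitals.
CBF1: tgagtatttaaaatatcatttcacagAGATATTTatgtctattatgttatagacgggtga
CBF2: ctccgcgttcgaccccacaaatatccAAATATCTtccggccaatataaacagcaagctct
CBF3: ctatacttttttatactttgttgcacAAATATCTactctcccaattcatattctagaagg
Over the 1000 bases before the coding start, CCGAC was present in 7 of the 7 effector genes and in none of the 3 CBF genes, against 39.4% of all genes. The same window held the evening element at least 2 times in each CBF gene, against 1.84% of all genes. KIN1 held it 3 times and KIN2 2 times there, and 5 of the 7 effector genes held at least 1, against 15.3% of all genes. These matches describe the sequence and were not tested against any readout.

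Library totals ran from 8.76 M to 12.74 M counts in total RNA, 7.23 M to 11.27 M in nuclear RNA and 7.94 M to 10.65 M in cytoplasmic RNA, with M for 1e6 counts. Ribosomal RNA took 49.4% to 60.5% of the cytoplasmic counts, and other plastid genes took 15.2% to 20.3%. Nuclear genes had 2.102 M to 3.24 M counts there. Plastid genes other than ribosomal RNA took 8.56% to 11.3% of the counts in nuclear RNA and 5.01% to 6.77% in total RNA. The 6 flower bud markers passed the filter in total RNA, with a summed level of 618 to 700.2 CPM (counts scaled to 1e6 counts a library) in wild-type libraries and 799 to 830 CPM in aly1-2, and of the 3 root markers 1 passed, at 0.74 to 1.72 CPM. Of the bud markers 4 had higher levels in aly1-2 without overlap and at an unadjusted p under 0.05, as 7 of the 10 genes did, with AG at a log2 fold change of 0.66 (edgeR adjusted p = 0.0930) and 0 called by edgeR, and their part in the values of the 10 genes was not tested. ALY1, the mutated gene, was 6.45-fold lower in aly1-2 total RNA (log2 fold change −2.69, SE 0.15, edgeR adjusted p = 0.000319) and fell in nuclear RNA as well (−2.99, adjusted p = 0.0121), while in cytoplasmic RNA it was at −1.52 (adjusted p = 0.369). In a principal component analysis of the 14 libraries, aly1-2 replicate 1 lay nearer to wild type on the second component than the other aly1-2 libraries did, at −8.75 against 34.0 and 35.5 in total RNA, −10.0 against 51.8 in nuclear RNA and 6.10 against 125.6 in cytoplasmic RNA, where wild type ran from −60.2 to −15.1. In such bulk libraries fewer cells of a type and less RNA per cell cannot be told apart.

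The 10 genes spanned nearly 3 orders of magnitude in wild-type buds. Per kilobase of exon, ERD10 was the most abundant in total RNA at 960 CPM per kb ± 101 (SD, n = 3), followed by KIN2 at 568 ± 34.3, COR47 at 275 ± 16.9, COR15A at 172 ± 23.5 and KIN1 at 124 ± 7.33 CPM per kb. RD29A, at 64.0 ± 6.77 CPM per kb, and COR15B, at 46.3 ± 2.12 CPM per kb, were the lowest effector genes. No neighbouring effector genes in this order overlapped over the 3 wild-type libraries. The CBF genes stood far below, with CBF1 at 2.18 ± 0.73, CBF2 at 2.00 ± 0.26 and CBF3 at 1.33 ± 0.39 CPM per kb, and their ranges overlapped. In aly1-2 the order of the effector genes was the same, but COR15A overlapped KIN1 and RD29A overlapped COR15B. CBF3 moved from the lowest to the highest mean of the CBF genes there, 4.26 ± 0.45 CPM per kb, within the ranges of CBF1 and CBF2.

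In total RNA all 3 CBF genes were higher in aly1-2, with no overlap between genotypes, and CBF3 passed the test. CBF3 measured 1.79, 2.42 and 1.34 CPM in the wild-type libraries and 5.97, 5.27 and 6.52 CPM in the aly1-2 libraries. Its lowest mutant value was above its highest wild-type value. CBF3 was 3.19-fold higher (log2 fold change 1.67, SE 0.27, edgeR adjusted p = 0.049997), a call at the edge of the 0.05 threshold that 0.475% of the 20431 genes tested passed in either direction. CBF2 measured 2.13, 1.68 and 2.11 CPM in wild-type libraries against 4.40, 2.97 and 3.63 CPM in aly1-2. CBF1 measured 3.36, 2.94 and 1.64 CPM in wild-type libraries against 4.01, 4.41 and 6.70 CPM in aly1-2. Both genes kept the genotypes apart, but neither passed the test: the log2 fold change was 0.91 (SE 0.28, adjusted p = 0.197) for CBF2 and 0.92 (SE 0.33, adjusted p = 0.263) for CBF1. These levels rest on few reads, 13 to 76.5 per gene and library, and the 3 genes together had 65, 67 and 49.5 reads in wild type and 184.16, 132 and 181 in aly1-2. CBF3 missed the threshold when the fit left out wild-type replicate 1 (adjusted p = 0.223), 2 (0.114) or 3 (0.124) or aly1-2 replicate 2 (0.164) or 3 (0.127), with a log2 fold change of 1.47 to 1.91 throughout. It held without aly1-2 replicate 1 (0.0119). The call also ended with rounding down (0.0506), without ribosomal and organelle genes (0.0507), with RLE scaling (0.0526), in 1 fit of all 14 libraries (0.121) and with the replicate block (0.123), and it held with DESeq2 (0.00134) and without the filter (0.00972).

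The effector genes had positive but smaller log2 fold changes in total RNA, and none of the 7 passed the edgeR test. DESeq2 called KIN1 (adjusted p = 0.00883), ERD10 (0.0113) and KIN2 (0.0239), and edgeR without the filter called KIN1 (0.0454). Both settings called more of all genes, 553 of 20428 with DESeq2 and 428 of 30545 without the filter, against 97 of 20431 in the main fit. KIN1, a small hydrophilic protein gene, measured 109, 102 and 97.0 CPM in wild-type libraries and 130.9, 152 and 195 CPM in aly1-2. Its neighbour and close relative KIN2 measured 430.4, 449 and 398.5 CPM in wild-type libraries and 642, 497 and 678.5 CPM in aly1-2. Neither pair of ranges overlapped, with log2 fold changes of 0.63 (SE 0.15, adjusted p = 0.123) for KIN1 and 0.51 (SE 0.14, adjusted p = 0.165) for KIN2. The dehydrin gene ERD10 measured 1720, 1565 and 1391 CPM in wild-type libraries and 1971, 2243 and 2844 CPM in aly1-2. COR47, a dehydrin gene next to ERD10 on chromosome 1, measured 674, 640.5 and 596 CPM in wild-type libraries and 694, 806 and 1040 CPM in aly1-2. Again the genotypes did not overlap, at 0.59 (SE 0.17, adjusted p = 0.1775) for ERD10 and 0.41 (SE 0.16, adjusted p = 0.291) for COR47.

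COR15A and COR15B, neighbouring genes for chloroplast proteins that protect membranes in the cold, overlapped between genotypes. COR15A measured 249.8, 315 and 252 CPM in wild-type libraries and 442, 211.5 and 286 CPM in aly1-2. COR15B measured 74.4, 76.0 and 69.5 CPM in wild-type libraries and 129.7, 75.7 and 89.1 CPM in aly1-2. For both genes the high mutant value came from aly1-2 replicate 1, and the log2 fold changes were 0.20 (SE 0.24, adjusted p = 0.736) and 0.42 (SE 0.19, adjusted p = 0.345). Without that library COR15A turned to −0.13 and COR15B dropped to 0.17. RD29A, which codes for a hydrophilic protein, measured 190.0, 154.5 and 166.5 CPM in wild-type libraries and 212, 110.2 and 194 CPM in aly1-2. The mutant range enclosed the wild-type range, and the log2 fold change was 0.02 (SE 0.22, adjusted p = 0.980). The sign turned without aly1-2 replicate 1 (−0.16) or 3 (−0.08) and without wild-type replicate 2 (−0.05) or 3 (−0.01).

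**Figure D1:**
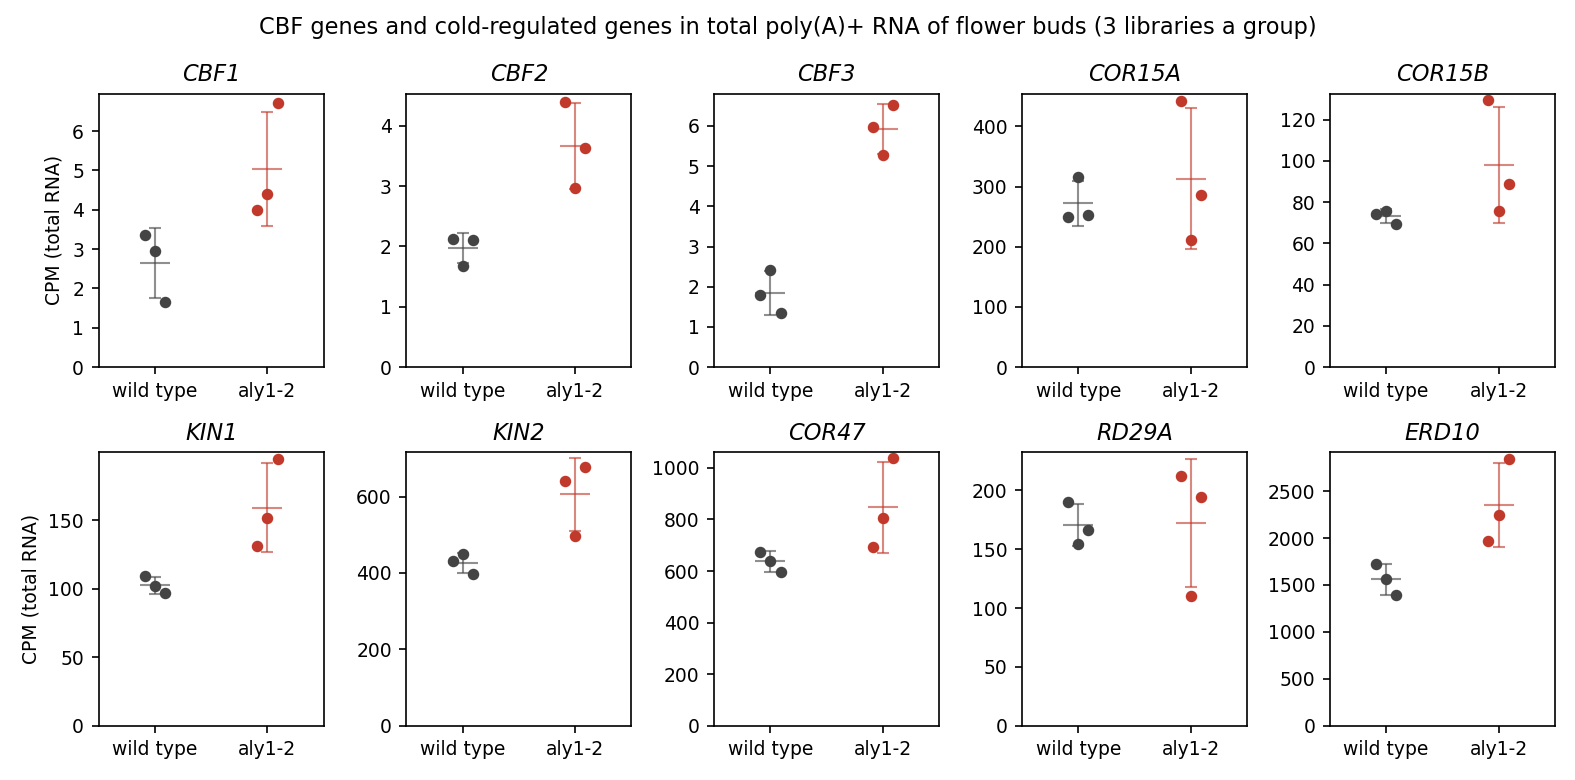
CPM (linear axis from 0) of each gene in the 3 wild-type (grey) and 3 aly1-2 (red) libraries of total RNA; horizontal marks and bars are the mean and SD. CBF1, CBF2, CBF3, KIN1, KIN2, COR47 and ERD10 show no overlap between genotypes, while COR15A, COR15B and RD29A do overlap.

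Counted together, 10 of the 10 genes had a positive log2 fold change in total RNA, against 51.5% of all genes tested, with a median of 0.55 against 0.01 for all genes. The genotypes did not overlap, with aly1-2 higher, for 7 of the 10, against 9.24% of all genes, and the same number had an unadjusted p under 0.05 with aly1-2 higher, against 6.8%. After adjustment 1 of the 10 was called higher, against 0.206%. Without aly1-2 replicate 1 the called genes were CBF3, KIN1 (adjusted p = 0.00700), ERD10 (0.0229) and COR47 (0.0440), and the calls over all genes went from 97 to 1639. The 10 genes share the 6 libraries and are known to be regulated together, so they are not independent of each other. They were also chosen with earlier results of these data known, so the shares over all genes describe the set and do not test it. Their summed counts took 0.298% to 0.352% of all counts in wild type and 0.419% to 0.507% in aly1-2.

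In nuclear RNA the 3 CBF genes were again above wild type in each aly1-2 library, on few reads, and none of the 10 genes passed the test. CBF3 measured 0.36 and 0.83 CPM in wild-type nuclei and 1.52 and 1.61 CPM in aly1-2 nuclei. CBF1 measured 1.23 and 2.05 CPM in wild-type libraries and 2.33 and 3.62 CPM in aly1-2. CBF2 measured 0.58 and 0.70 CPM in wild-type libraries and 1.3 and 1.16 CPM in aly1-2. The log2 fold change was 1.36 (SE 0.74) for CBF3, 0.85 (SE 0.67) for CBF1 and 0.93 (SE 0.91) for CBF2, and these had larger errors than in total RNA for each gene. KIN1, KIN2 and COR47 also kept the genotypes apart, at 0.67 (SE 0.33), 0.68 (SE 0.35) and 0.42 (SE 0.32). ERD10 (0.78), COR15A (0.57) and COR15B (0.39) overlapped between genotypes, and RD29A was the 1 gene with a negative value, −0.39 (SE 0.43). In all, 9 of 10 genes had a positive value, against 52.8% of all genes, 6 of 10 did not overlap with aly1-2 higher, against 14% of all genes, 0 were called by edgeR, against 0.0381%, and 0 had an unadjusted p under 0.05 with aly1-2 higher, against 0.811%. DESeq2 called 0 as well. In the same nuclei all 8 heat shock genes had positive values, 7 at an unadjusted p under 0.05 and 0 called by edgeR, with a summed level of 352 to 523 CPM in wild type and 1023 to 2621 CPM in aly1-2, and the 8 leaf photosynthesis genes summed to 3527 to 3705 CPM and 3680 to 5591 CPM. Their part in the values of the 10 genes was not tested.

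Cytoplasmic RNA gave a partly different order. ERD10 measured 2294 and 3151 CPM in wild-type cytoplasm and 6573 and 5525 CPM in aly1-2 cytoplasm, with the largest log2 fold change of the 10 genes there, 1.15 (SE 0.47, unadjusted p = 0.0273, edgeR adjusted p = 0.498). COR47 measured 391 and 552 CPM in wild-type libraries and 801 and 731.5 CPM in aly1-2, at 0.70 (SE 0.32, unadjusted p = 0.0477, edgeR adjusted p = 0.546). CBF3 measured 2.16 and 1.99 CPM in wild-type libraries and 4.33 and 4.09 CPM in aly1-2, at 1.02 (SE 0.73). All 3 genes kept the genotypes apart, as did COR15B at 0.84 (SE 0.42) and KIN2 at 0.40 (SE 0.35). CBF1 (0.07, SE 0.75) and CBF2 (−0.27, SE 0.92) overlapped. The wild-type libraries held 0.59 and 4.44 CPM of CBF2, from 3 and 29 reads, and leaving out wild-type replicate 2 turned CBF2 to 1.91. RD29A was again below 0, at −0.35 (SE 0.43). Of the 10 genes, 8 had a positive value, against 49.5% of all genes, 5 did not overlap with aly1-2 higher, against 17.1% of all genes, and 0 were called by edgeR, against 0.0143%, with 2 at an unadjusted p under 0.05, against 4.12% of genes higher at that level. DESeq2 called 0 in cytoplasmic RNA too. The leaf photosynthesis genes summed to 3561 to 3667 CPM in wild-type cytoplasm and 4463 to 5718 CPM in aly1-2 cytoplasm, and the heat shock genes to 115 to 236 CPM and 147 to 763 CPM, and their part was not tested.

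**Figure D2:**
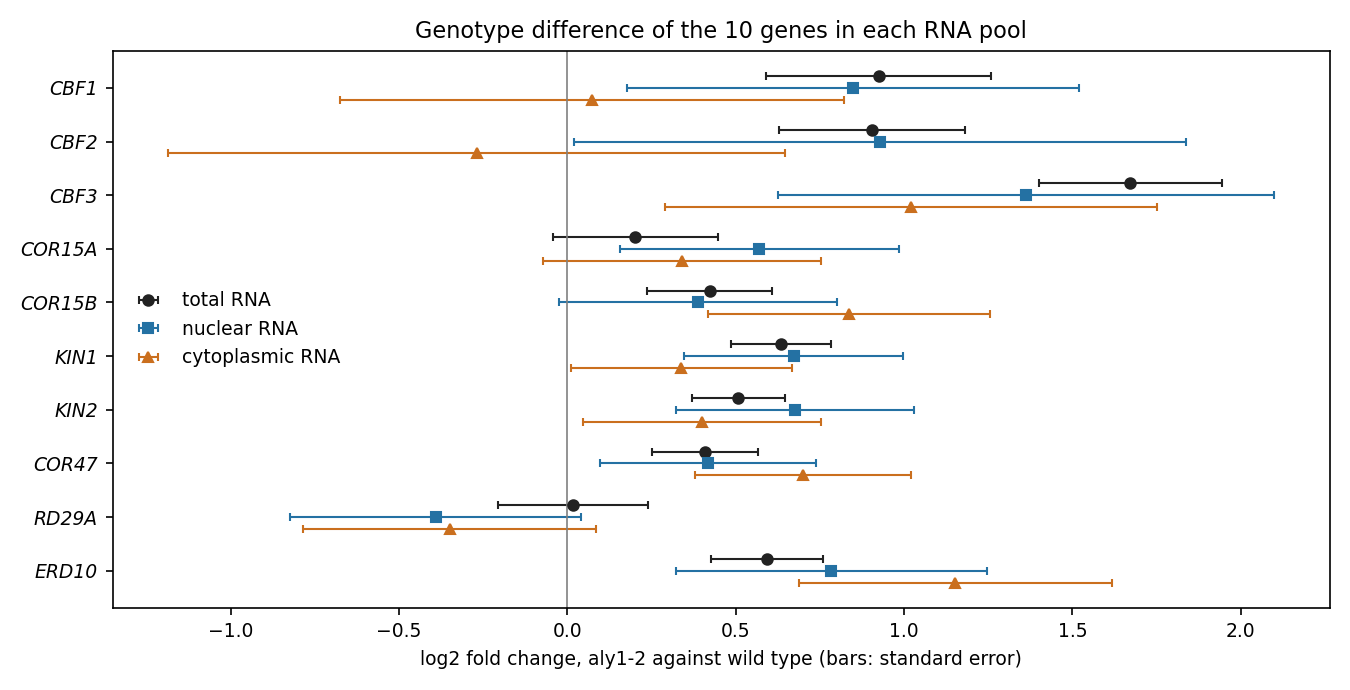
Log2 fold change of aly1-2 against wild type for each gene in total RNA (circles), nuclear RNA (squares) and cytoplasmic RNA (triangles), with bars for the standard error. CBF3 is above 1 in each of the 3 pools, RD29A is at 0.02 in total RNA and below 0 in both fractions, and the fraction estimates of the CBF genes carry the widest bars.

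The fractions also allow the share of each transcript to be compared between nuclear and cytoplasmic RNA. TMM factors in that fit ran from 0.523 to 1.93, and the purity of the fractions was not tested. In wild-type buds all 10 genes had a negative nuclear against cytoplasmic log2 difference, where 51.7% of all genes were positive, and COR15A and ERD10 passed the test. COR15A measured 46.1 and 108 CPM in wild-type nuclei and 193 and 268 CPM in wild-type cytoplasm, a log2 difference of −1.58 (SE 0.42, edgeR adjusted p = 0.0209). ERD10 measured 571 and 1414 CPM in nuclei and 2294 and 3151 CPM in cytoplasm, a log2 difference of −1.46 (SE 0.47, adjusted p = 0.0452). Neither gene overlapped between fractions. In aly1-2 the same 2 genes were called: COR15A measured 139.7 and 89.4 CPM in nuclei and 351 and 231 CPM in cytoplasm, at −1.35 (SE 0.42, adjusted p = 0.0400). ERD10 measured 1202 and 2217 CPM in nuclei and 6573 and 5525 CPM in cytoplasm, at −1.82 (SE 0.47, adjusted p = 0.0185). The count of 2 of 10 called lower in the nucleus stood against 8.03% of all genes in wild type and 7.8% in aly1-2.

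These calls depended on individual libraries, and a group left with 1 library is assumed to vary like the other groups. In wild type, COR15A was not called without cytoplasmic replicate 1 (adjusted p = 0.0545) or 2 (0.173) or nuclear replicate 1 (0.138) of wild type, and ERD10 was not called without those libraries (0.0791, 0.236 and 0.251) or without aly1-2 cytoplasmic replicate 1 (0.0781) or 2 (0.0787). In aly1-2, COR15A was not called without aly1-2 cytoplasmic replicate 1 (0.253) or 2 (0.0670), aly1-2 nuclear replicate 2 (0.194) or wild-type cytoplasmic replicate 1 (0.0589) or 2 (0.0591), and ERD10 was not called without aly1-2 cytoplasmic replicate 1 (0.103) or 2 (0.0584) or aly1-2 nuclear replicate 1 (0.0936). All of these values kept the cytoplasm higher.

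Among the other genes, CBF3 (−1.77, SE 0.77, adjusted p = 0.121) and CBF2 (−1.98, SE 0.93, adjusted p = 0.152) had the most negative nuclear against cytoplasmic values in wild type without passing, and CBF1 was near 0 at −0.20 (SE 0.71). Without wild-type cytoplasmic replicate 2 the CBF2 value was 0.23, and without wild-type cytoplasmic replicate 1 it was −2.72 and called (adjusted p = 0.0455). In 1 fit of all 14 libraries CBF2 (0.0386) and CBF3 (0.0204) were called in wild type, and CBF3 (0.0248) in aly1-2. That fit called 4 of the 10 genes in each genotype, against 7785 of all 21728 genes in wild type and 7714 in aly1-2. In aly1-2, CBF3 was at −1.42 (SE 0.71), CBF2 at −0.78 (SE 0.91) and CBF1 at 0.58 (SE 0.71), the 1 positive value among the 10 genes, against 53.5% of all genes. KIN1, KIN2, COR47, RD29A and COR15B lay between −0.73 and −0.42 in wild type and between −0.87 and −0.20 in aly1-2, and none passed the edgeR test. In aly1-2, COR47 was called by DESeq2 (adjusted p = 0.0497) and in 1 fit of all 14 libraries (0.0268). DESeq2 called 4550 of all 20971 genes there. Without aly1-2 nuclear replicate 1, RD29A (−1.59, adjusted p = 0.0199) and COR15B (−1.41, adjusted p = 0.0435) were called there. The median of the 10 genes was −0.67 in wild type and −0.78 in aly1-2, against 0.05 and 0.11 for all genes. In each genotype 6 of 10 genes did not overlap between fractions with the cytoplasm higher, against 29.3% of all genes in wild type and 27.7% in aly1-2. In these CPM a nuclear and a cytoplasmic value are each a share of their own library after scaling, not a number of molecules per cell.

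**Figure D3:**
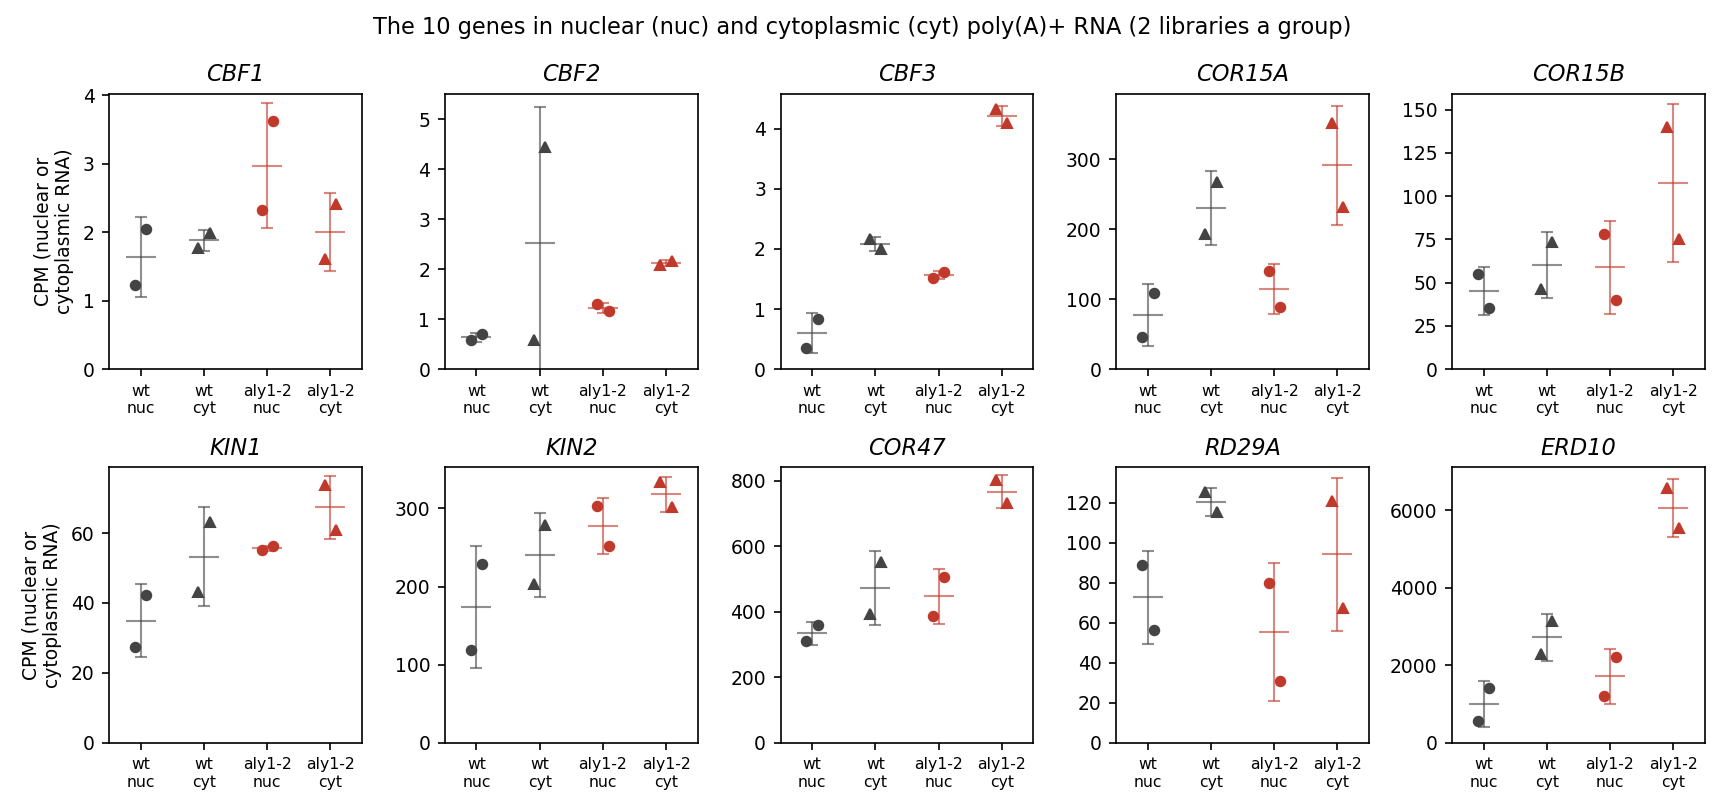
CPM (linear axis from 0) of each gene in nuclear (circles) and cytoplasmic (triangles) RNA of wild type (grey) and aly1-2 (red), 2 libraries a group; marks and bars are the mean and SD. COR15A and ERD10 sit higher in the cytoplasm of both genotypes, and CBF2 in wild-type cytoplasm spans 0.59 to 4.44 CPM, with an SD bar that runs below the axis.

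Whether the mutation shifted these transcripts between nucleus and cytoplasm was asked with the interaction of genotype and fraction. No gene of the 10 was called by edgeR, against 0% of the 20971 genes tested, and 0 of the 10 had an unadjusted p under 0.05, against 3.36% of all genes. DESeq2 also called 0 of the 10. The change of the log2 nuclear to cytoplasmic ratio in aly1-2 was 1.20 (SE 1.29) for CBF2, 0.78 (SE 1.00) for CBF1, 0.34 (SE 1.00) for CBF3, 0.33 (SE 0.46) for KIN1 and 0.28 (SE 0.50) for KIN2. The lowest values were those of COR15B (−0.45, SE 0.59), ERD10 (−0.37, SE 0.65) and COR47 (−0.28, SE 0.45). COR15A (0.23, SE 0.58) and RD29A (−0.04, SE 0.61) were closest to 0. A p above the threshold with errors of this size does not show that the ratios were alike, and 8 of the 10 values changed sign when 1 of the libraries was left out, all but those of CBF1 and COR47.

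Other cold-induced genes lay on both sides of 0. Of 21 such genes 20 were tested in total RNA, 9 with a positive and 11 with a negative log2 fold change, with a median of −0.04. The 1 gene that edgeR called was lower: RD29B, a drought and abscisic acid responsive gene, measured 98.3, 89.3 and 81.3 CPM in wild-type libraries and 21.1, 8.91 and 13.6 CPM in aly1-2. It was 6.13-fold lower, with no overlap (log2 fold change −2.62, SE 0.27, edgeR adjusted p = 0.00916), while its neighbour RD29A stood at 0.02. The RD29B call did not hold when wild-type replicate 1 was left out (adjusted p = 0.0725). Of genes called lower, the share over all genes tested was 0.269%. P5CS1, an enzyme gene of proline synthesis, measured 372, 358 and 347 CPM in wild-type libraries and 190.4, 149 and 231 CPM in aly1-2, at −0.92 (SE 0.16, adjusted p = 0.0567). ERD7 (0.74, SE 0.13, adjusted p = 0.0662) and COR413IM1 (0.71, SE 0.13, adjusted p = 0.0633), a chloroplast membrane protein gene, had positive values without passing in edgeR. DESeq2 called P5CS1 (adjusted p = 5.39e-06), COR413IM1 (0.00122) and ERD7 (0.00236), and edgeR without the filter called the same 3 genes (0.00642, 0.0159 and 0.0144). Over all genes these settings called 553 and 428, against 97 in the main fit. With aly1-2 replicate 1 left out, ERD7 (adjusted p = 0.00906), P5CS1 (0.0115) and COR413IM1 (0.0169) were called, and P5CS1 was also called without aly1-2 replicate 3 (0.0344).

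**Figure D4:**
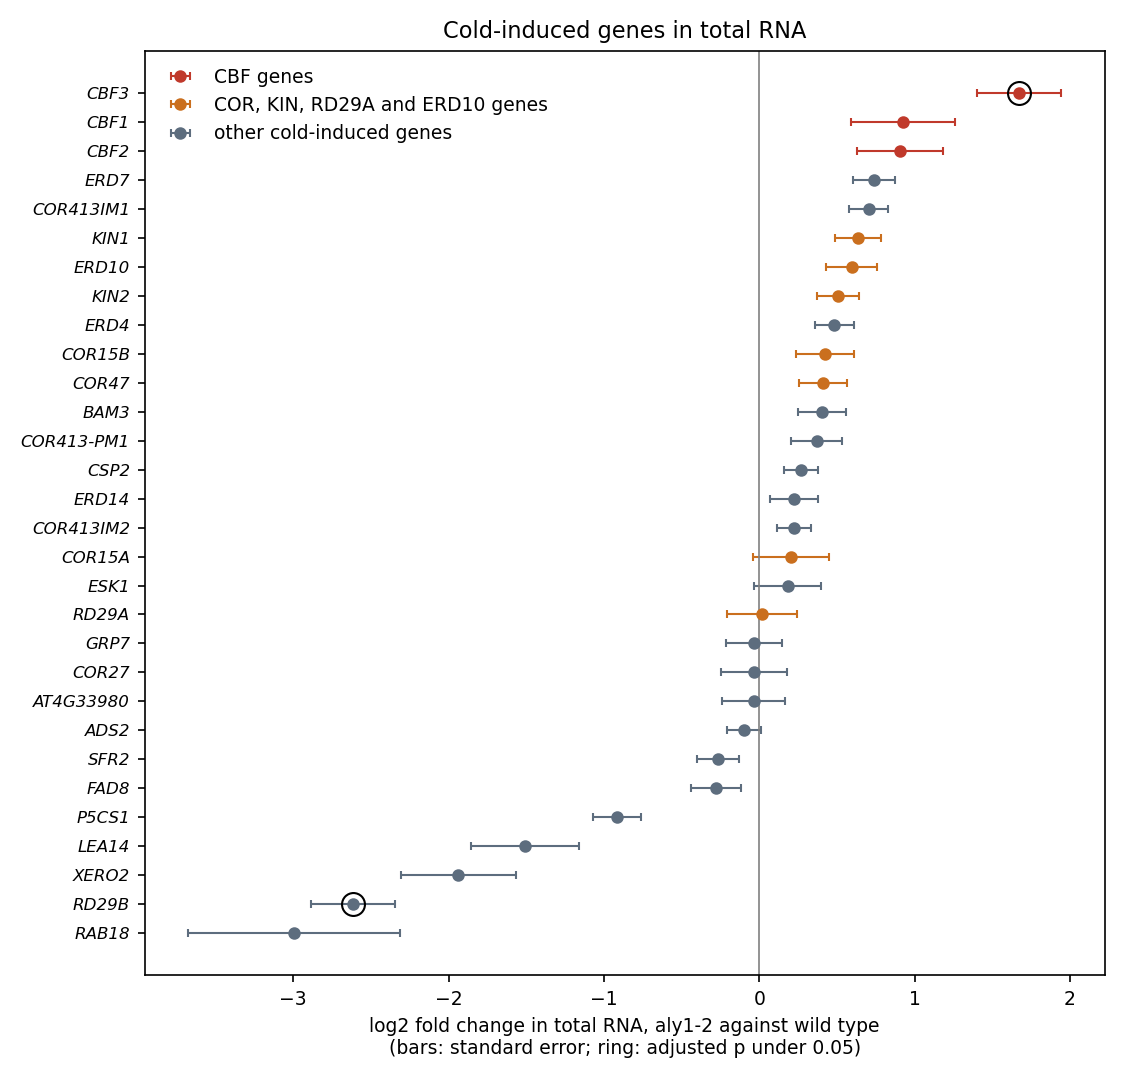
Log2 fold change of aly1-2 against wild type in total RNA, with bars for the standard error, for the CBF genes (red), the effector genes of the set (orange) and 20 other cold-induced genes (grey); rings mark an adjusted p under 0.05. The rings are on CBF3, at 1.67, and on RD29B, at −2.62, and RAB18, XERO2, LEA14 and P5CS1 also lie to the left of −0.9 without a ring.

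Besides RD29B and P5CS1, the genes of that list below −0.9 were RAB18, XERO2 and LEA14, named here after their values were seen, and edgeR called none of them. RAB18, a dehydrin gene that answers to abscisic acid, measured 744, 943.5 and 557 CPM in wild-type libraries and 196, 20.6 and 64.5 CPM in aly1-2, at −2.99 (SE 0.68, adjusted p = 0.115). XERO2, another dehydrin gene, measured 48.7, 52.1 and 34.2 CPM in wild-type libraries and 18.7, 5.56 and 10.6 CPM in aly1-2, at −1.94 (SE 0.37, adjusted p = 0.0750). LEA14, a late embryogenesis abundant protein gene, was lower in aly1-2 without overlap, at −1.51 (SE 0.35, edgeR adjusted p = 0.118). ERD10 and COR47 had log2 fold changes of 0.59 and 0.41 in the same libraries. Over the whole list of 20 genes, 6 were higher and 6 lower without overlap in total RNA. In nuclear RNA 4 were higher and 5 lower without overlap, and in cytoplasmic RNA 6 and 6. Of all 20431 genes tested in total RNA, 1888 were higher and 2207 lower without overlap. Of the 20971 genes tested in the fractions, these counts were 2931 and 2833 in nuclei and 3592 and 3831 in cytoplasm. In either fraction edgeR called 0 of the list. At an unadjusted p under 0.05, 0 of the list were higher and 5 lower in nuclei, against 170 and 304 of all genes. In cytoplasm 2 were higher and 5 lower at that level, against 863 and 1044 of all genes. The RD29B window above also held 1 CCGAC. The 300 bases before RAB18 held 3 matches to ACGTG and none to CCGAC, those before XERO2 held 3 matches to CCGAC and 0 to ACGTG, and those before P5CS1 held 0 of either. Over the 1000 bases before the coding start, LEA14 held 3 matches to CCGAC and 5 to ACGTG. RD29B held 3 and 6 there, RAB18 2 and 4, XERO2 3 and 1, and P5CS1 1 and 2. Of the list genes with a positive value, COR413IM1 held 1 and 5, and ERD7 held 2 and 1. The matches were not tested against the values.

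Of the genes that act above the CBF cluster, edgeR called none, and MPK3 passed with DESeq2. Of 25 upstream regulators, all tested, 13 were positive and 12 negative in total RNA, with a median of 0.01 and 0 calls by edgeR, 2 higher and 2 lower at an unadjusted p under 0.05. MPK3, a MAP kinase that acts against ICE1 upstream of the CBF genes, measured 43.6, 41.3 and 33.4 CPM in wild-type libraries and 59.5, 87.3 and 67.5 CPM in aly1-2, at 0.86 (SE 0.16, edgeR adjusted p = 0.0753). MPK3 was called by DESeq2 (adjusted p = 0.000490) and by edgeR without the filter (0.0129), settings that called 553 and 428 of all genes. SIZ1, a SUMO ligase of ICE1, stood at −0.35 (adjusted p = 0.163), OST1, an ICE1 kinase, at −0.30 (0.319), and PIF7, a repressor of the CBF genes, at 0.69 (0.332). Of 15 other early cold or DREB-type transcription factors 14 were tested, with 8 positive, 6 negative and 0 called by edgeR, 3 higher and 2 lower at an unadjusted p under 0.05. DDF1, a relative of the CBF genes, was at 1.35 (SE 0.40, adjusted p = 0.193) on 8 to 33 reads. ERF6 was at 0.50 (adjusted p = 0.192), ZAT6 at −1.09 (0.245) and DEAR1 at −1.87 (0.293). With aly1-2 replicate 1 left out, MPK3 (adjusted p = 0.00414), DEAR1 (0.00380), ZAT6 (0.0233) and DDF1 (0.0265) were called.

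Several other lists of genes varied among the same libraries. Of 11 clock genes 8 were negative and 0 called by edgeR, 3 at an unadjusted p under 0.05, among them ELF4 (−0.62, adjusted p = 0.0784), PRR9 (−1.87, adjusted p = 0.237) and CCA1 (−1.11, adjusted p = 0.342). The summed level of the clock list ran from 581 to 603 CPM in wild-type total RNA and from 428 to 647 CPM in aly1-2. Of 6 touch and wounding genes 5 were positive and 0 called by edgeR, 3 at an unadjusted p under 0.05, with WRKY40 at 0.49 (adjusted p = 0.0819), and the summed level was 372 to 430 CPM against 394 to 512 CPM. Heat shock genes, 6 of 7 positive with 0 called by edgeR and 0 at an unadjusted p under 0.05, spread within both genotypes, from 308 to 2795 CPM summed in wild type and from 1007 to 2445 CPM in aly1-2. Leaf photosynthesis genes, 7 of 8 positive with 0 called by edgeR and 0 at an unadjusted p under 0.05, summed to 8679 to 10165 CPM in wild-type libraries and 8756 to 13677 CPM in aly1-2, the highest value being that of aly1-2 replicate 1, where COR15A and COR15B were also highest. In nuclear and cytoplasmic RNA, too, aly1-2 replicate 1 had higher summed clock, heat shock and leaf photosynthesis levels, and more COR15A, than aly1-2 replicate 2. The part of any of these in the values of the 10 genes was not tested.

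Genes beside the CBF cluster gave a local comparison. ABCB28 (AT4G25450), on the CBF2 side, was at 0.33 (adjusted p = 0.319) in total RNA with overlapping genotypes, and RS40 (AT4G25500), on the CBF1 side, at 0.28 (adjusted p = 0.240) without overlap. AT4G07385, a long non-coding RNA gene on the other strand that overlaps the end of CBF3, had 0 to 4 reads in each library of total RNA and 10 and 11 reads in aly1-2 nuclei, against 2 and 3 in wild-type nuclei. It was below the filter in every fit. Libraries were strand-specific per the labels' protocols, but strand use in counting was not given in the sources used here, so reads of CBF3 and AT4G07385, and of COR15B and AT2G42520, cannot be told apart with certainty. Sequence shared within the family was limited: 3.95% of the 50-base windows of CBF2, 2.48% of those of CBF1 and 0.6% of those of CBF3 occurred in another gene, each time another CBF gene. CBF counts were whole numbers in 12 or 13 of the 14 libraries and those of COR47 and ERD10 in 0, although no 50-base window of either of these occurred in another gene.

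Across the 14 libraries, with each value taken as a deviation from the mean of its RNA fraction, the genes varied together to unequal degrees. The highest Pearson correlations among the 10 were those of COR47 with ERD10 (0.91) and KIN1 with KIN2 (0.91), and CBF3 was nearest to KIN2 (0.87) and KIN1 (0.86). RD29A had the lowest correlations, with −0.55 to ERD10, −0.33 to CBF3 and 0.42 to COR15B. The genes most like the mean of the CBF genes, out of 17300 compared, were OPCL1 (0.95), AT3G59765 (0.94), NSP1 (0.89), AT3G29776 (0.89) and MPK3 (0.89), and the 95th percentile of all genes was 0.61. Those most like the mean of the effector genes were AILP1 (0.97), PSBQ-2 (0.92), ERD15 (0.89), AT4G16870 (0.89) and AT5G12950 (0.89), with a 95th percentile of 0.64. These correlations describe 14 libraries that share genotype, fraction and depth, and carry no test.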

How the data were processed

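Poly(A)+ RNA from total, nuclear and cytoplasmic extracts was sequenced in 14 libraries. The deposited tables hold the authors' estimated counts per gene, with 86.4% to 92.7% whole values per library. What made the other values fractions was not tested. STAR 2.5.1b, featureCounts, Subread 1.6.1 and the TAIR10 build are named in the submitters' processing notes, and strand use in counting was not given in the sources used here. Gene names, exon lengths and sequences came from RefSeq TAIR10.1, which matched 37051 of 37336 identifiers, and the tables hold no coordinates.

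Counts were rounded to whole numbers, since the planned test assumed counts. edgeR 4.0.16 (R 4.3.3) quasi-likelihood tests with TMM scaling and Benjamini-Hochberg adjustment over all genes tested (threshold 0.05, minimum count 10, minimum total 15) were fitted to the 6 total libraries (20431 genes) and, separately, to the 8 fraction libraries (20971 genes), so levels are not compared between total and fraction RNA. SE was taken as the size of the log2 fold change over the root of its F statistic. CPM are TMM-scaled within each fit. The procedure was tested on simulated data. No pair of replicates agreed within sampling noise (chi-square per degree of freedom 5.78 to 41.3).

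The members and lists were chosen with earlier results of these data known. Named genes are the 10 members, ALY1, up to 4 genes of each other list with the smallest adjusted p in total RNA, list genes past the threshold, the 5 most correlated genes for the mean of each class, and the neighbours of the CBF cluster, and RAB18, XERO2 and LEA14 were named outside this rule after their values were seen. Alternatives were RLE scaling, no filter, rounding down, leaving out ribosomal and organelle genes, 1 fit of all 14 libraries, a replicate block, DESeq2 1.42.0 and leaving out each replicate.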

Additional observations from a re-analysis of the deposited data

Results flagged for a closer look

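PIF7 and ELF3 were picked from all listed genes because their genotypes did not overlap, in opposite directions, between RNA pools. Of all 20971 genes tested in the fractions, 2931 were higher and 2833 lower without overlap in nuclei, and 3592 and 3831 in cytoplasm. In total RNA 2207 of 20431 were lower. The nearest cytoplasmic values of the genotypes were 0.98 and 0.96 CPM for PIF7, and 8.63 and 8.82 CPM for ELF3. Neither gene passed the edgeR threshold in any of the 3 genotype comparisons. For the change of the nuclear to cytoplasmic ratio, edgeR called 0 of the 25 upstream regulators, PIF7 among them. It also called 0 of the 11 clock genes, ELF3 among them. In both lists 0 genes had an unadjusted p under 0.05 for that change. The difference between total and cytoplasmic RNA was not tested. PIF7, a repressor of the CBF genes, measured 1.23 and 4.16 CPM in wild-type nuclei and 6.50 and 5.75 CPM in aly1-2 nuclei, a log2 fold change of 1.18. In cytoplasm PIF7 measured 0.98 and 2.45 CPM in wild-type libraries and 0.80 and 0.96 CPM in aly1-2, a log2 fold change of −0.991, on 4 to 16 reads. ELF3, a component of the evening complex of the clock, measured 58.9, 54.4 and 58.5 CPM in wild-type total RNA and 54.1, 45.3 and 50.3 CPM in aly1-2, a log2 fold change of −0.198. In cytoplasm ELF3 measured 8.63 and 4.44 CPM in wild-type libraries and 8.82 and 12.3 CPM in aly1-2, a log2 fold change of 0.695.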

How the results depend on the processing

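Of 1049 single values recomputed under the alternatives, 962 kept their direction and their side of the threshold, 31 gained a call, 27 lost one and 29 changed sign. Most of the 1049 belong to genes not called in the main fit of that comparison. For those, staying on the same side of the threshold says little about how firm the called results are. The cause of the changes was not tested. The CBF3 adjusted p in total RNA was 0.00134 with DESeq2 and 0.00972 without the filter, but 0.0506 with rounding down, 0.0507 without ribosomal and organelle genes, 0.0526 with RLE scaling and 0.121 in 1 fit of all libraries. Of the 10 genes, 4 were called in total RNA with DESeq2 (CBF3, KIN1, KIN2 and ERD10), 2 without the filter (CBF3 and KIN1), and 0 with rounding down, without ribosomal and organelle genes, with RLE scaling or in 1 fit of all libraries. That 1 fit called 4 of the 10 between nucleus and cytoplasm in each genotype. Over all genes, total RNA had 97 calls, with 553 by DESeq2, 428 without the filter and 41 in 1 fit. Nuclear RNA had 8, with 32, 143 and 17, and cytoplasmic RNA had 3, with 45, 175 and 204, in the same order. The 1 fit called 7785 of 21728 genes between nucleus and cytoplasm in wild type and 7714 in aly1-2. The change of the ratio gave 5 calls without the filter.

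The labels do not say that replicate numbers pair the samples. Deviations of same-numbered total libraries correlated at −0.11, −0.25 and 0.28, which does not pair them, and among the fractions at 0.23 for aly1-2 nuclear with cytoplasmic RNA, 0.19 for the nuclear libraries of both genotypes and −0.028 to 0.031 for the other pairs of groups, with 2 numbers a group. With the replicate block, CBF3 had a log2 fold change of 1.68 (adjusted p = 0.123), RD29A turned to −0.033, 0 of the 10 genes were called in total RNA, and all genes gave 20 calls in total, 19 in nuclear and 9 in cytoplasmic RNA.

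With 1 library left out, calls among the 10 genes ranged from 0 to 4 in total RNA, 0 to 2 between fractions in wild type and 0 to 3 in aly1-2, and stayed at 0 in nuclear RNA, cytoplasmic RNA and the ratio. Calls over all genes ranged from 16 to 1639 in total RNA, 3 to 157 in nuclear RNA, 0 to 52 in cytoplasmic RNA, 1610 to 4168 between fractions in wild type, 1767 to 3997 in aly1-2 and 0 to 3 for the ratio. Log2 values that changed sign in total RNA ranged from −0.13 to 0.42 for COR15A and −0.16 to 0.26 for RD29A. In nuclear RNA they ranged from −0.16 to 0.81 for COR15B and −1.22 to 0.15 for RD29A. In cytoplasmic RNA they ranged from −0.16 to 0.37 for CBF1, −1.04 to 1.91 for CBF2 and −0.81 to 0.088 for RD29A. Between fractions in wild type the ranges were −0.61 to 0.14 for CBF1, −2.72 to 0.23 for CBF2 and −0.76 to 0.056 for COR15B. For the ratio they were −1.002 to 1.95 for CBF2, −0.12 to 1.08 for CBF3, −0.26 to 0.99 for COR15A, −1.0003 to 0.030 for COR15B, −0.072 to 0.70 for KIN1, −0.13 to 0.85 for KIN2, −0.88 to 0.50 for RD29A and −0.88 to 0.45 for ERD10. Depth limits the CBF genes most, with 3 to 29 reads per gene in the wild-type cytoplasmic libraries.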
